A study of Caenorhabditis elegans with 2 samples.

Results

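The genes examined here encode REPO-1 itself and 7 proteins that work beside it when the U2 particle settles on an intron: repo-1, prp-21, sftb-1, teg-4, mog-2, uaf-1, uaf-2 and sfa-1. They were listed by name for their known roles, with earlier results of these data known, and all 8 were found in the Ensembl WBcel235 annotation (the ce11 build), among 19973 protein-coding genes. The data are chromatin immunoprecipitation followed by sequencing (ChIP-seq) of REPO-1 in whole young adult Caenorhabditis elegans of both sexes, pooled, collected 53 hours after starved L1 larvae were released from synchrony. All animals were of strain OP688, which carries unc-119(tm4063) III and the transgene wgIs688, so the animals expressed REPO-1 fused at its C terminus to GFP and FLAG in an unc-119 mutant background, and chromatin sheared by sonication was precipitated with an antibody to GFP. There was 1 group of 2 biological replicates, and no untagged strain or input sample entered a comparison here, so no test between conditions exists. Each replicate and the pooled reads gave a list of 30000 summits (the base of highest signal in a called region). A shorter list of 1789 summits, called replicated here, was kept by a threshold on the irreproducible discovery rate (IDR). Which comparison set that threshold is not given, so the name does not mean that both replicates ranked each summit alike. The lowest pooled signal in that list was 131.5. At the 8 genes and the splicing genes compared below, the best replicated summit had the same rank there as in the pooled list. A signal below 131.5 and absence from that list are therefore not separate observations. The lists carry a signal and a q value for each summit but no read counts, so the depth behind each value is unknown, and the scale of the signal is not given in the sources used here.

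In the spliceosome, the U2 small nuclear ribonucleoprotein pairs with the branch site near the end of the intron, and the protein complexes SF3a and SF3b hold it there. Before U2 arrives, SF1 binds the branch site and the U2AF heterodimer binds the 3′ splice site, where worm introns usually end in a short run of U followed by CAG and carry little of the long pyrimidine tract and branch-site consensus known from yeast or mammals. REPO-1 is the worm SF3A2 and PRP-21 the worm SF3A1; SFTB-1 (SF3B1) and TEG-4 (SF3B3) belong to SF3b, MOG-2 is the A′ protein of the U2 core, UAF-1 and UAF-2 are the large and small U2AF subunits, and SFA-1 is SF1. These proteins bind RNA or each other, so a ChIP-seq summit marks DNA recovered with tagged REPO-1, directly or through nascent RNA and other proteins, and these lists cannot tell those routes apart.

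The intron ends hold the 3′ splice site, which the products of uaf-1 and uaf-2 bind. They are shown because the genes themselves are spliced by the machinery they encode. Each line holds the last 20 bases of an intron and 3 bases of the following exon, written as DNA on the gene's own strand from the ce11 genome, and capitals mark the longest stretch at the intron end that matches the letters TTTTCAG read from the right. For each gene shown, the intron is one of its closest matches to those letters, so these lines do not stand for all its introns, whose counts follow, and teg-4 is counted but not shown.
repo-1 intron 1 end, chrIV:12085097-12085119, plus strand: taccaagtaattttttcCAGaga
prp-21 intron 1 end, chrII:485085-485107, plus strand: aatacattttcaaTTTTCAGcaa
sftb-1 intron 4 end, chrIII:4267213-4267235, minus strand: taaaaattaaataTTTTCAGgtc
mog-2 intron 1 end, chrII:4325316-4325338, plus strand: aatttaccccataTTTTCAGcta
uaf-1 intron 1 end, chrIII:1074473-1074495, minus strand: caaaaaccccccaTTTTCAGtcg
uaf-2 intron 3 end, chrIV:17117314-17117336, minus strand: aaaatatttttcgcTTTCAGgtt
sfa-1 intron 6 end, chrIV:17106071-17106093, minus strand: aaaaaatccccatTTTTCAGcgg
Of the 57 distinct introns of the 8 genes, 57 (100%) ended in AG, 32 (56.1%) in TTTCAG and 17 (29.8%) in TTTTCAG. Of 109051 distinct introns of all protein-coding genes, 99.6% ended in AG, 47.2% in TTTCAG and 26.1% in TTTTCAG. The single intron of repo-1, 82 bp long, matched no further than CAG, whereas the single intron of mog-2, 739 bp long, ended in the full 7 letters. The median intron was 179 bp in the 8 genes and 68 bp over all introns, and uaf-1, with a median of 1790 bp, had the longest introns by that measure. Matches were searched only at the annotated intron end and on the transcribed strand.

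A replicated summit stood within 1000 bp of 3 of the 8 genes (37.5%, 95% Wilson interval 13.7 to 69.4): sftb-1, teg-4 and sfa-1. Over all protein-coding genes the share was 10.7%, and the interval covers only the error of counting 8 genes. The 5 others were repo-1 and prp-21 (SF3a), mog-2, uaf-1 and uaf-2. Gene length moved with this count, since 5 of the 8 genes were at least 5000 bp long and their median span was 5511 bp, against 2027 bp over all genes, and 15% of all genes of that length had a replicated summit, against 9.84% of shorter ones. Its part in the count was not tested. When the strongest 1789 summits of a single replicate replaced the replicated list, replicate 2 alone gave 2 genes (sfa-1 and teg-4), against 10.5% of all genes, and replicate 1 alone gave 1 (sfa-1), against 10.6%. Replicate 1 did place a summit of rank 1238 at the teg-4 peak, 27 bp from the pooled summit, but just outside the 1000 bp limit.

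The DNA at the centre of both replicated peaks outside teg-4 is shown because their surroundings differ. Each line is written on the strand of the named gene, with the 11 bases centred on the summit in capitals, and the sftb-1 line is kept shorter because R10E4.1 begins beside it.
sftb-1 peak centre, chrIII:4269654-4269754, minus strand: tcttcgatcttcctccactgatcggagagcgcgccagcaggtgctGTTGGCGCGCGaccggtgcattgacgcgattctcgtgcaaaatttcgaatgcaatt
sfa-1 peak centre, chrIV:17105705-17105855, minus strand: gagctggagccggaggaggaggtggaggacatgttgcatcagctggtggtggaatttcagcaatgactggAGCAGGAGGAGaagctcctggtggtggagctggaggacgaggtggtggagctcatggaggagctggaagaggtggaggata
The sfa-1 centre reads as runs of GGAGGA and GGTGGT. Counting the letters GGA on both strands, with overlapping matches counted, the 151 bases at the sfa-1 summit held 20, against 4 at the sftb-1 summit, 4 at the teg-4 summit and a median of 4 over the 1789 replicated summits. Only 2 of the 1789 (0.112%), the sfa-1 one included, held 20 or more. These letters were chosen after the sequence was read, so the count describes this peak and tests nothing. Over the same number of bases its G and C content was 58.9%, against 49.7% at sftb-1, 38.4% at teg-4 and a median of 43.7%, and 3.8% of replicated summits were at or above it.

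Among the genes that held no replicated summit, repo-1 was the one gene near which no list placed any summit, even within 20 kb. The gene lies on chromosome IV from 12084478 to 12085320 on the plus strand, spans 843 bp with 2 exons, and begins 115 bp after the end of lex-1 on the same strand and ends 99 bp before rbm-34. In the pooled list the nearest summits stood 28561 bp to its left, with a signal of 113.8 and rank 2685 of 30000, and 37772 bp to its right, with a signal of 83.7 and rank 5968. The empty stretch between them was 67174 bp, where the median distance between neighbouring pooled summits was 1186 bp, and only 55 of the 29994 stretches were longer. In replicate 1 the stretch was 67074 bp and ranked 29 of 29994, and in replicate 2 it was 67181 bp and ranked 54. Its left edge moved by 35 bp and its right edge by 73 bp among those 3 lists.

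Such a stretch was rare but not single. With the summits of the pooled list and both replicates laid together, the repo-1 stretch ranked 21 of 86544 (0.0243%), and 13 of the 21 longest lay on chromosome IV. It was not poor in genes: 18 protein-coding genes lay wholly inside it, or 2.68 per 10 kb, against 1.99 per 10 kb over the genome, and 7 of the 21 longest, this one included, held at least 18. Among the 18 were lex-1, rbm-34, mig-32, ddb-1, mon-2, the collagen gene col-129 and cpsf-4, which encodes a cleavage and polyadenylation factor. Of all protein-coding genes, 757 (3.79%) had no pooled summit within 20 kb, 442 (2.21%) had none in replicate 1 and 736 (3.68%) none in replicate 2. The other 7 genes had between 11 (prp-21, mog-2) and 44 (sfa-1) pooled summits within that distance, and the median over all genes was 12. These counts take in the gene itself, so longer genes had wider windows. Per 10 kb of window, prp-21 had 2.42 pooled summits, mog-2 had 2.64 and sfa-1 had 9.33. The strain carries tagged repo-1 in addition to the native locus, reads from the transgene and from the native gene cannot be told apart in these lists, and whether the region was removed before or after peak calling is not given in the sources used here. Its part in the missing summits was not tested.

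**Figure D1:**
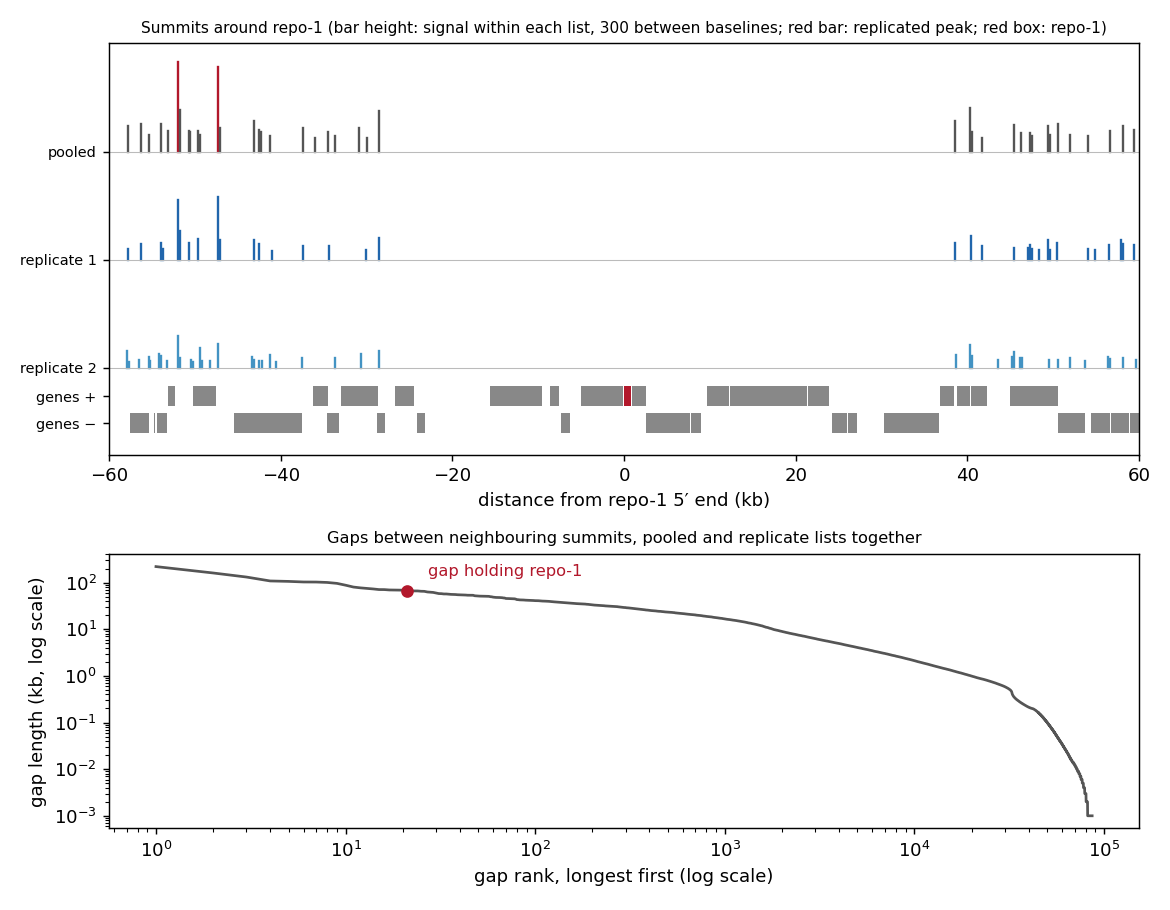
Top, summits of the pooled list and of each replicate by distance from the 5′ end of repo-1 in kb, with bar height showing the signal within each list and grey boxes showing protein-coding genes on each strand. Bottom, length in kb of every stretch between neighbouring summits of the pooled and replicate lists against its rank, both on log scales. No bar stands between 28561 bp left and 37772 bp right of repo-1 in the pooled list, and the stretch of 67074 bp ranks 21.

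The other SF3a gene, prp-21, was the weakest of the 7 with any summit. It lies on chromosome II from 484866 to 490403 on the plus strand, spans 5538 bp with 9 exons, and faces gldi-1 across 487 bp. Its only pooled summit had a signal of 43.1 and rank 23984, in a coding exon 3602 bp inside the gene. The nearest summit of replicate 1 was 177 bp away, with a signal of 30.0 and rank 23214, and that of replicate 2 was 1503 bp away, with a signal of 20.2 and rank 22001. The replicates therefore placed no common summit on prp-21, and 54% of protein-coding genes had a better pooled rank.

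In SF3b, sftb-1 held a replicated summit on the promoter side. It lies on chromosome III from 4263786 to 4269270 on the minus strand, spans 5485 bp with 11 exons, and shares a 472 bp divergent region with R10E4.1. The summit, at 4269704 in a region from 4269486 to 4269921, stood 434 bp upstream of sftb-1 but only 39 bp upstream of R10E4.1. Its pooled signal was 139.6, where the lowest replicated signal was 131.5, and its rank was 1525 of 1789 with a −log10 q of 2.79. Replicate 1 placed a summit 24 bp away with a signal of 82.7 and rank 1935, and replicate 2 placed one 1 bp away with a signal of 54.7 and rank 2202. Both replicates found the same place, and between 2 divergent genes a summit cannot be given to either of them by distance alone. The 6 other pooled summits near sftb-1 had signals from 39.5 to 65.5. In the replicated list the genes next in rank were met-2, 2 places above with a signal of 139.7 and a summit 193 bp from its 5′ end, and mrpl-42, 1 place below with a signal of 139.6 and a summit 148 bp from its 5′ end.

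The largest of the genes, teg-4, had the strongest replicated summit, but beyond its 3′ end. It lies on chromosome I from 6814511 to 6834699 on the plus strand, spans 20189 bp with 22 exons, and holds ser-3 on the opposite strand inside it. The summit at 6835685 stood 986 bp past the teg-4 end and 784 bp upstream of ahcy-1, which encodes adenosylhomocysteinase, and within 200 bp of the non-coding RNA gene K02F2.11. Its pooled signal was 179.0 at rank 842, with a signal of 96.3 at rank 1238 in replicate 1, 27 bp away, and 90.2 at rank 602 in replicate 2, 52 bp away. At the teg-4 5′ end the pooled list had a summit 190 bp upstream with a signal of 97.1 and rank 4057. That signal was below the lowest replicated signal of 131.5, so the summit was not in the replicated list. Replicate 1 placed it 13 bp away at rank 7204 and replicate 2 placed it 18 bp away at rank 2581. With the distance set at 500 bp, teg-4 had no replicated summit. The genes next in rank were grl-26, 1 place above with a signal of 179.2 and a summit 141 bp from its 5′ end, and F46B6.6, 1 place below with a signal of 179.0 and a summit 827 bp away.

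For mog-2 the best pooled summit also lay on the far side of the gene. This U2 core gene lies on chromosome II from 4324361 to 4326042 on the plus strand, spans 1682 bp with 2 exons, and follows H20J04.6 by 125 bp on the same strand. The summit had a signal of 80.2 at rank 6672 and stood 449 bp past the mog-2 end and 229 bp upstream of pfd-2. Replicate 1 ranked it 19517 with a signal of 33.1, and replicate 2 ranked it 3805 with a signal of 44.7, so the replicates placed it far apart in order. A weaker summit 1 bp inside the 5′ end had a signal of 45.9 and rank 21707.

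The U2AF genes had summits in both replicates and none in the replicated list. Their pooled signals were all below the lowest in that list, 131.5. The large-subunit gene uaf-1 lies on chromosome III from 1062794 to 1076555 on the minus strand, spans 13762 bp, and has coding transcripts of 2 to 7 exons. Its best pooled summit was intronic, 8262 bp from the 5′ end at rank 7899, near a replicate 1 summit of signal 52.4 and rank 6865 at 106 bp and a replicate 2 summit of signal 34.2 and rank 7645 at 6 bp. At its 5′ end, 37 bp inside, a summit had a signal of 60.9 and rank 12780. The small-subunit gene uaf-2 lies on chromosome IV from 17116771 to 17118767 on the minus strand and spans 1997 bp. Its best pooled summit, 273 bp inside the gene in a coding exon, had a signal of 88.2 and rank 5212, with a signal of 44.9 at rank 10213 in replicate 1 and 31.5 at rank 9255 in replicate 2. A nearly equal summit, with a signal of 85.4 and rank 5677, stood 269 bp past its 3′ end and 155 bp inside cyn-13, at rank 8207 in replicate 1 and, with a signal of 40.2, at rank 5012 in replicate 2. Pooled ranks therefore put the exonic summit ahead, and both replicates put the cyn-13 one ahead.

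The branch-point gene sfa-1 had its replicated summit inside a coding exon. It lies on chromosome IV from 17103825 to 17110982 on the minus strand, spans 7158 bp with 8 exons, and is the third gene of a same-strand row in which uaf-2, cyn-13, sfa-1 and Y116A8C.30 follow each other at 113, 98 and 109 bp. Exon 7, from 17105586 to 17106073, is 488 bp long, and the summit at 17105780 stood 293 bp from its 5′ edge and 194 bp from its 3′ edge, in the GGA-rich stretch printed above. It was 5202 bp from the sfa-1 5′ end and 1955 bp from the 3′ end, and the nearest 5′ end of any protein-coding gene, that of Y116A8C.30, was 2065 bp away. Its pooled signal was 159.6 at rank 1086 with a −log10 q of 3.43, which 1354 pooled summits shared as the highest value. Replicate 1 placed it 5 bp away with a signal of 100.3 and rank 1116, and replicate 2 placed it 53 bp away with a signal of 60.6 and rank 1679. The gene also had the most pooled summits of the 8, with 11, and 8 in replicate 1 and 7 in replicate 2, where teg-4 had 9 pooled, 8 in replicate 1 and 12 in replicate 2. The best of the rest, 851 bp inside the gene, had a signal of 93.6 and rank 4470, with a signal of 71.5 at rank 2907 in replicate 1 and only 23.1 at rank 17479 in replicate 2. The genes next in rank to sfa-1 were sec-61.B, 3 places above with a signal of 159.8 and a summit 504 bp from its 5′ end, and sco-1, 2 places below with a signal of 159.6 and a summit 210 bp from its 5′ end.

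**Figure D2:**
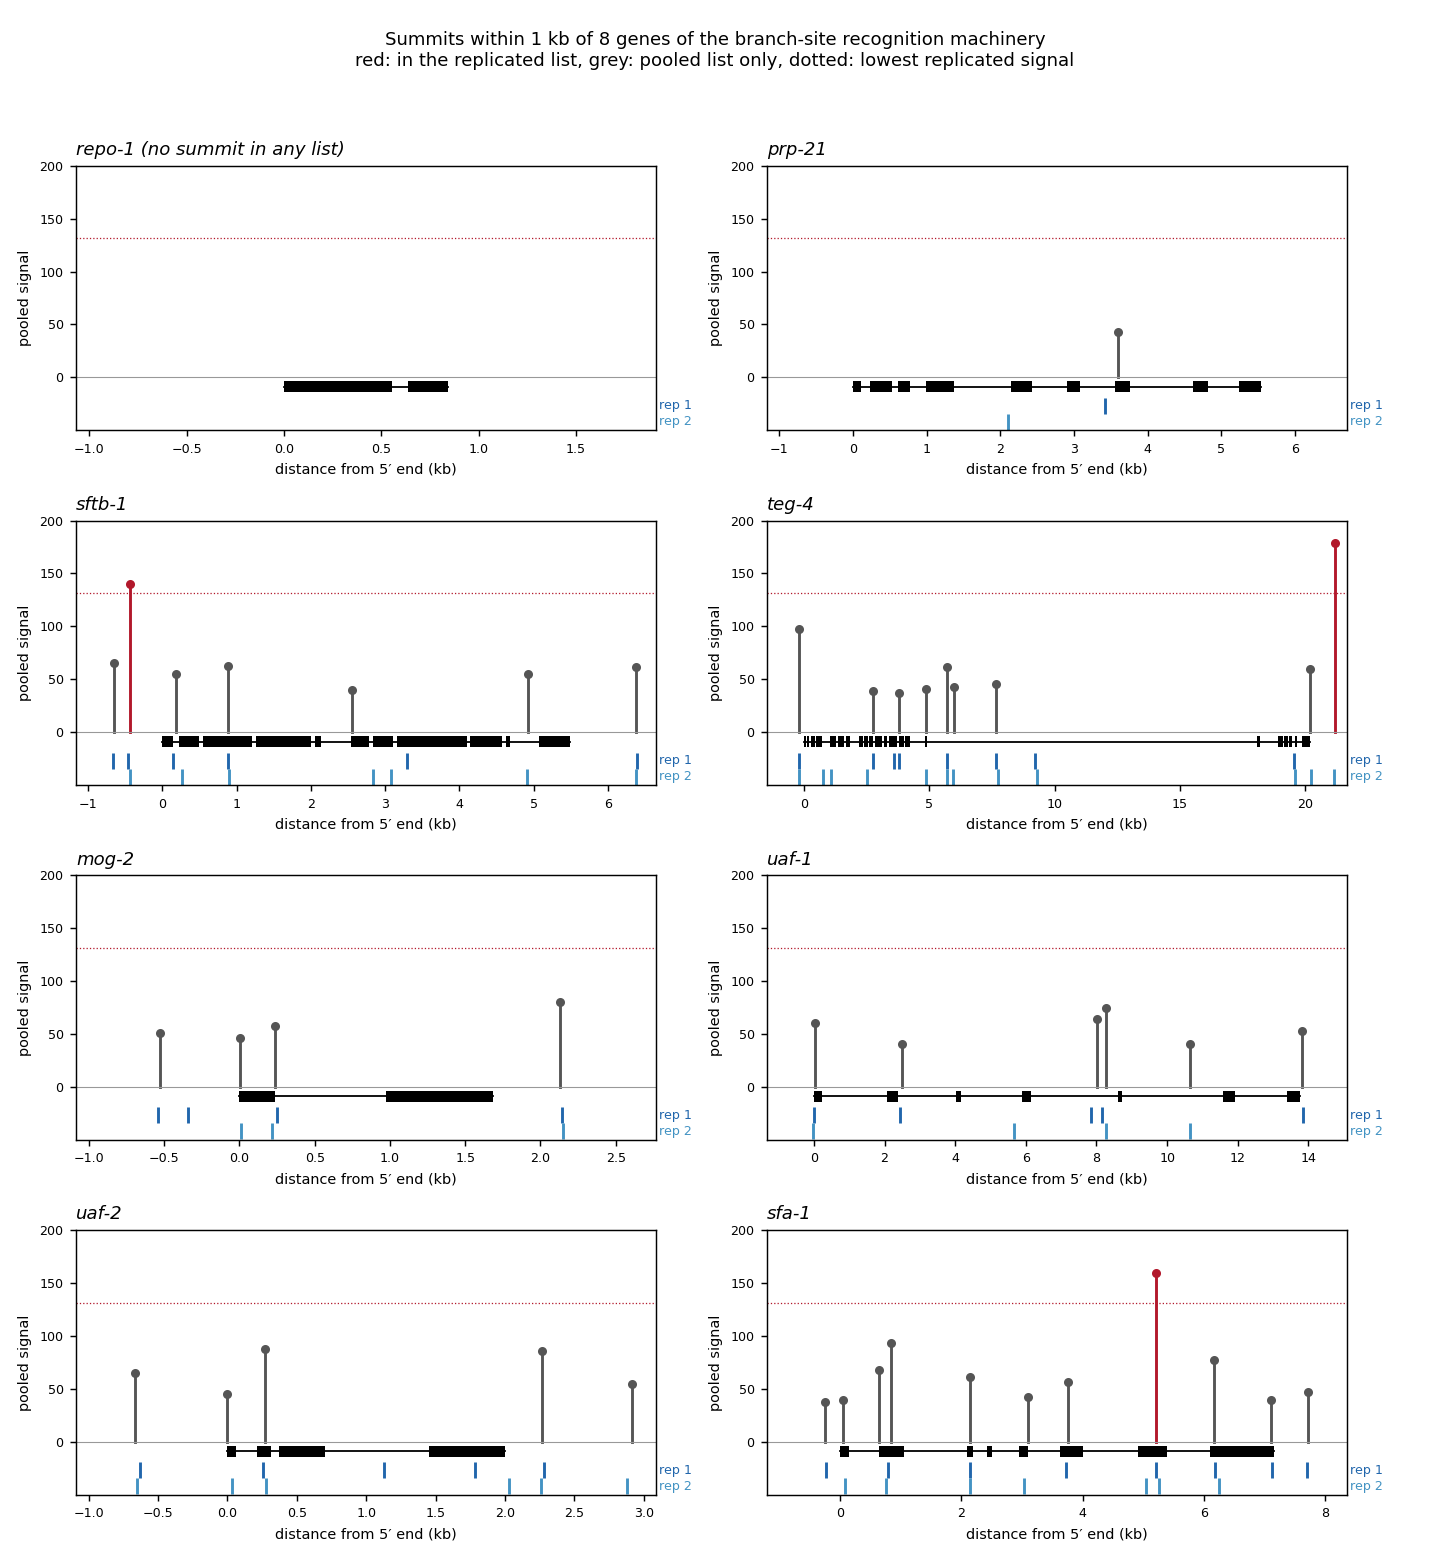
Summits within 1 kb of each of the 8 genes by distance from the gene's 5′ end in kb, with the pooled signal as bar height, exons as black boxes and ticks for the summits of each replicate. The 3 red bars, at sftb-1 (139.6), teg-4 (179.0) and sfa-1 (159.6), reach above the dotted line at 131.5, and every grey bar stays at or below 97.1.

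None of the 3 replicated summits had its own gene's 5′ end as the nearest protein-coding 5′ end: R10E4.1, ahcy-1 and Y116A8C.30 were nearer. This was common over all genes too. There, 2132 of 19973 (10.7%) had a replicated summit within 1000 bp, and 1229 (6.15%) when a summit counted only for its nearest 5′ end. Within the window from 500 bp upstream to 200 bp inside the 5′ end, 1 of the 8 genes (12.5%, interval 2.24 to 47.1), sftb-1, held a replicated summit, against 3.14% of all genes. In 4 of the 8 (50%), repo-1, teg-4, mog-2 and sfa-1, another gene on the same strand ended less than 500 bp upstream, as in worm operons, against 3615 of 19973 (18.1%), so a summit just upstream of such a gene can lie in its neighbour.

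Below the replicated level, a pooled summit lay within 1000 bp of 7 of the 8 genes (87.5%, interval 52.9 to 97.8), against 58.3% of all genes. The replicate 1 list also reached 7 of the 8, against 61.6% of all genes, and the replicate 2 list 7 of the 8, against 59.6%. Every list of other splicing genes described below had a higher share. Those shares were 91.2% to 100% in the pooled list, 94.1% to 100% in replicate 1 and 91.2% to 100% in replicate 2. Gene length was not allowed for in these counts. Lists of 30000 summits hold many weak ones, and the median best pooled rank was 5212 over the 7 genes and 7114 over all genes with a pooled summit. By pooled rank, 5.57% of protein-coding genes stood ahead of teg-4, 7.04% ahead of sfa-1, 9.36% ahead of sftb-1, 23.9% ahead of uaf-2, 27.9% ahead of mog-2 and 31.1% ahead of uaf-1. The order held only in part between replicates. In both, sfa-1 ranked ahead of sftb-1 and prp-21 ranked last, while mog-2, uaf-1 and uaf-2 changed places. The best rank of teg-4 went from 602 in replicate 2 to 7204 in replicate 1, but at different summits. Replicate 1 gave the peak past the teg-4 3′ end rank 1238, at a summit just outside the 1000 bp limit.

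**Figure D3:**
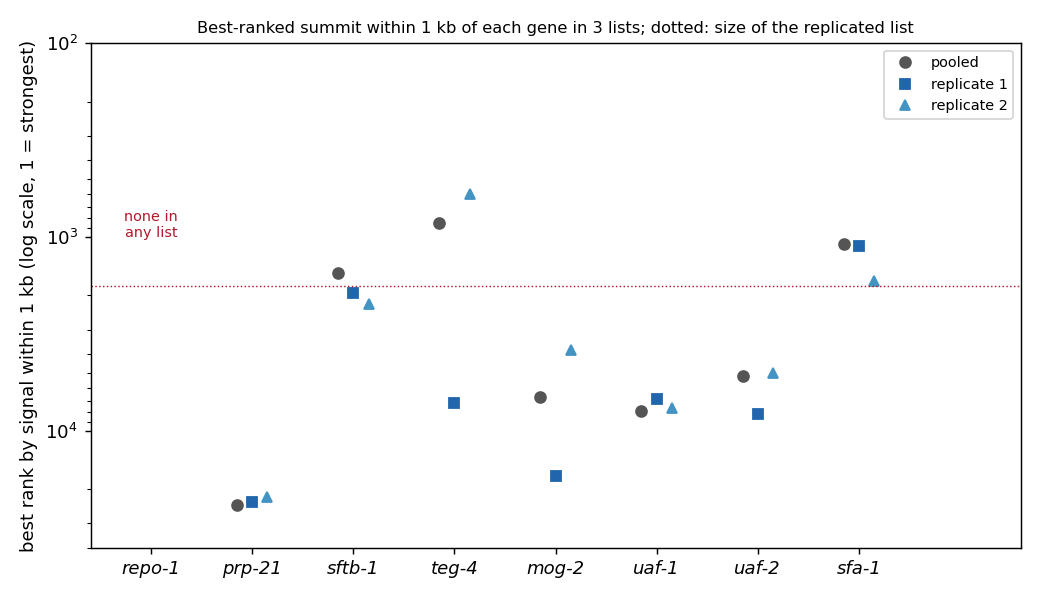
Best rank by signal of any summit within 1 kb of each gene in the pooled, replicate 1 and replicate 2 lists, on a log scale with the strongest at the top and a dotted line at 1789. The sfa-1 points lie together between 1086 and 1679, the mog-2 points spread from 3805 to 17083, and the replicate 1 point of teg-4 is low (7204) because that replicate's summit past the 3′ end falls just outside the window.

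The 43 pooled summits near the 8 genes were spread over 6 upstream, 4 in untranslated exons, 16 in coding exons, 10 in introns and 7 downstream. Of the 30 inside one of the 8 genes, 20 (66.7%) lay in exons, which make up 31.1% of the bases of these genes. The gene with most of these 20 was sfa-1, and the base share takes in long introns, up to 13145 bp in teg-4. Over all protein-coding genes, 60.5% of the pooled summits inside genes lay in exons, which make up 47% of the bases. Replicate support near the 8 genes was close to that of the whole list: 18 of the 43 (41.9%) had a summit within 100 bp in both replicates, against 39.6% of all 30000 pooled summits, and 90.7% had one in at least 1 replicate, as did 90.7% of all.

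Set beside other splicing genes, the counting interval around 3 of 8 held the share of every list. The other genes of U1, U2 and early intron recognition had a replicated summit at 5 of 17 (29.4%, interval 13.3 to 53.1). Its 4 strongest were rsr-1 (rank 246), rbm-39 (rank 276, 7 bp upstream of the gene), prp-40 (rank 1002) and rbm-17 (rank 1223). No other SF3a or SF3b gene found in the annotation was among the 5. Best pooled ranks were 4789 for sap-49, 7176 for sftb-6, 10299 for sftb-2 and 25031 for phf-5. The gene of the remaining SF3a subunit, prp-9, had no pooled summit and a replicate 1 summit at rank 20466. The listed symbols sftb-5 and sfap-3 matched no gene and were not examined. The Sm and LSm ring proteins, which form the cores of the particles, had one at 6 of 15 genes (40%, interval 19.8 to 64.3), led by lsm-7 (rank 110), snr-4 (rank 132), lsm-6 (rank 207) and lsm-3 (rank 323). Genes of later splicing steps had one at 6 of 34 (17.6%, interval 8.35 to 33.5), led by smu-1 (rank 179), mog-4 (rank 293), ddx-15 (rank 466) and ddx-23 (rank 678). The SR and hnRNP regulators had one at 7 of 26 (26.9%, interval 13.7 to 46.1), led by hrpa-1 (rank 236), rsp-8 (rank 252) and the divergent rsp-1 and rsp-2, which share 1 summit (rank 543). The strongest summit near the 8 genes, at rank 842, was below the 4 strongest of 3 of these lists and below 2 of the 4 in the list of early recognition. In these lists too, a summit within 1000 bp of the named gene can lie nearer another gene's 5′ end. Among the strongest genes named from each list, it did at rsr-1, ddx-15, hrpa-1 and rsp-2. The gene's own 5′ end was nearest at rbm-39, prp-40, rbm-17, lsm-7, snr-4, lsm-6 and lsm-3. The same held at smu-1, mog-4, ddx-23, rsp-8 and rsp-1. Among the weaker replicated summits of these lists, another gene's 5′ end was nearer more often than not.

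**Figure D4:**
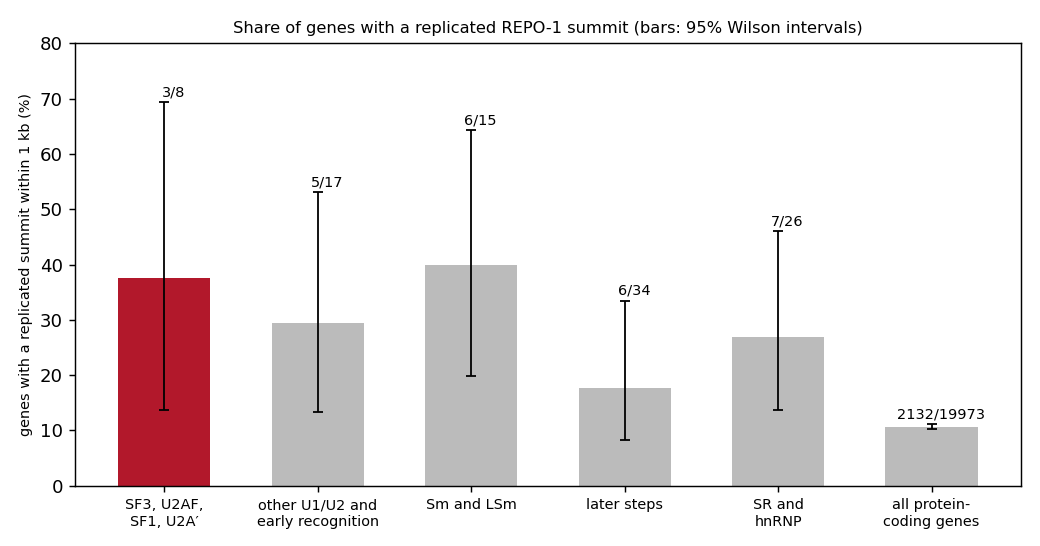
Share in percent of genes with a replicated summit within 1 kb, for the 8 genes, for 4 lists of other splicing genes and for all protein-coding genes, with 95% Wilson intervals as error bars and counts above them. The bar of the 8 genes (37.5%) has an interval from 13.7 to 69.4 that holds the values of all 4 lists (17.6% to 40%), and the bar of all genes is at 10.7%.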

How the data were processed

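REPO-1-GFP ChIP-seq was measured in 2 biological replicates. The authors deposited, per the text files in the deposit, summit lists for each replicate and for the pooled reads as input for the IDR step. They also deposited the shorter list thresholded by IDR, whose summits are called replicated here. Each deposited summit has a signal, whose scale is not stated, and a −log10 q value. Which aligner, peak caller and IDR threshold were used is not given in the sources used here. Lists on the older ce10 build were not used.

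Summits were placed on Ensembl release 115 gene models of WBcel235 with Python 3.11.15, numpy 2.4.6 and pandas 2.3.3, and ranked by signal within each list. A summit counted for a gene when it lay inside the gene, at any depth, or within 1000 bp outside either end. Placement was tested on simulated data. The text names all 8 genes, the genes nearest to or holding their summits, the next genes in rank and up to 4 strongest genes per splicing list. Members and lists were chosen with earlier results of these data known. Of 99 list symbols, 5 matched no gene. Sequences came from the RefSeq WBcel235 genome. Shares carry 95% Wilson intervals, which cover counting error only. With 1 group there was no test, and alternatives were other distances, a signal minimum, single replicates, nearest 5′ ends and region overlap.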

Additional observations from a re-analysis of the deposited data

How the results depend on the processing

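The 3 of 8 genes with a replicated summit became 1 when only summits inside a gene counted, 1 at or above the median signal and 0 when a summit counted only for its nearest 5′ end. The same settings gave 3.98%, 5.89% and 6.15% of all genes in place of 10.7%, and 1, 2 and 3 of the 17 other early recognition genes in place of 5. Single-replicate lists gave between 1 and 2 of the 8 genes, between 10.5% and 10.6% of all genes, and 5 of the 17. A distance of 500 bp gave 2 of the 8 genes and 9.21% of all genes, 2000 bp gave 3 and 13.1%, and region overlap gave 3 and 11.1%. The 17 stood at 5, 6 and 5 under those settings. Ranking by q put sfa-1 and teg-4 at the same rank, 677.5, among 1354 summits tied at the top, so their order by signal was lost. No paired analysis was possible because there is 1 group. Depth is unknown, so no limit from depth can be given.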
